A study of Mus musculus with 24 samples.

Results

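The time dependence of a macrophage response to S14 was examined gene by gene. S14 is sphingomyelin d18:1/14:0, a membrane lipid with a phosphocholine head group, a sphingosine base and a short saturated acyl chain. The members were the genes whose difference between S14-treated and untreated cells was not the same at 18 h as at 3 h, chosen by the interaction of treatment and time: the log2 fold change of S14 over untreated cells at 18 h minus that at 3 h. Of 11717 genes tested, 1944 passed at an adjusted p under 0.05 (16.6%). A positive interaction marks a gene whose S14 to untreated ratio was higher at 18 h than at 3 h, and a negative one a gene whose ratio was lower at 18 h.

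All cells were bone marrow-derived macrophages of C57BL/6J wild-type mice, which are primary cells grown out from bone marrow with medium conditioned by L929 fibroblasts, a source of the macrophage growth factor CSF1. The groups were 30 µM S14 for 18 h, untreated for 18 h, 30 µM S14 for 3 h and untreated for 3 h, with 4 libraries each. A further 8 libraries came from cells given 100 ng/mL lipopolysaccharide (LPS), a bacterial cell wall component, for 18 h or 3 h, and served as a separate measure of change over time. All 24 libraries were 3′ end RNA libraries (QuantSeq 3′ FWD), in which a read count reflects the number of transcripts and not their length. The sample labels name no vehicle for the untreated cells, although the deposited column headers abbreviate them as vehicle, and the study's design text gives n = 4 without saying whether libraries are separate animals. The p-values therefore measure the spread between libraries.

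Macrophages that sense a microbial product through a Toll-like receptor first transcribe inflammatory cytokines and chemokines through NF-kB, a transcription factor that also induces its own inhibitors, so this early wave is short. Interferons released in that wave then bind their receptor and induce antiviral and GTPase genes, and a later wave holds acute-phase, scavenger and metabolic genes. Untreated cultures can change with time as well, and a fold change over untreated cells can therefore move because either culture moves.

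The interaction equals the change of the treated level (S14 at 18 h over S14 at 3 h) minus the drift of the untreated level (untreated at 18 h over untreated at 3 h). Levels are given in CPM, the reads of a gene scaled to a common library total. A gene was called treated-led where the treated level moved more than the untreated level, drift-led where the untreated level moved more, and not separated where the test of this could not tell, which is the edgeR quasi-likelihood test of the sum of both changes at an adjusted p under 0.05. The 16 libraries held 3334182 to 6350251 reads and 13405 to 15505 detected genes. Replicate 4 of the untreated group at 18 h stood apart, with an SD of its log2 deviations from the group mean of 0.518, against 0.327 to 0.345 in the other 3 libraries of that group, and with 705 spike-in reads, the fewest of all 24. Spike-in RNA gave another scale. Scaled to it, the typical gene's interaction shifted by -1.08, or by -0.60 without that replicate, so every direction given here is relative to the typical gene of these libraries.

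Both kinds of change were common. Groups of 4 libraries did not overlap for 23.0% of genes between S14 and untreated cells at 18 h and 20.8% at 3 h, and between 18 h and 3 h for 43.5% in S14 cells and 32.8% in untreated cells. The treated level differed between 18 h and 3 h for 5061 genes (43.2%) and the untreated level for 4547 genes (38.8%), all by edgeR's quasi-likelihood test over 11717 genes. Among the 1944 interaction genes, 892 were positive (7.61% of genes tested) and 1052 negative (8.98%). On the spike-in scale the split was 20 positive and 4095 negative, or 25 and 1391 without replicate 4 of the untreated group at 18 h, so positive interactions in particular hold relative to the typical gene. The treated level led in 1008 of the 1944 genes, the untreated level led in 414, and 522 were not separated. On the spike-in scale 445 genes were treated-led and 842 drift-led, or 577 and 136 without replicate 4 of the untreated group at 18 h. Of the 583 treated-led genes with a negative interaction, 269 also fell in untreated cells, and of the 425 with a positive interaction, 197 also rose there. All 222 drift-led genes with a positive interaction were called lower at 18 h in untreated cells, with a median untreated change of -0.81 against a median treated change of -0.06. All 192 drift-led genes with a negative interaction were called higher at 18 h in untreated cells, with a median untreated change of 0.90 and a median treated change of 0.11. The drift-led label itself fixes the sign of the untreated change and makes it the larger one. These counts and medians therefore describe the label and are not a separate result.

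**Figure D1:**
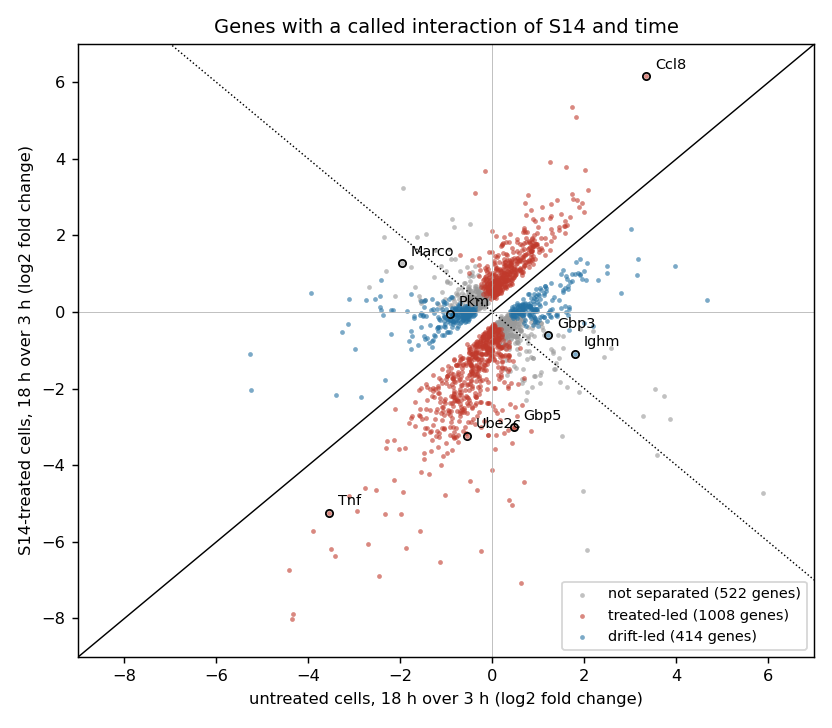
Each point is 1 of the 1944 genes with a called interaction; the y axis is the log2 fold change of S14-treated cells at 18 h over 3 h and the x axis that of untreated cells, with the solid line where both are equal and the dotted line where they are opposite and equal in size. Treated-led genes lie in the vertical wedges between the lines, drift-led genes in the horizontal ones. Tnf fell in both cultures, Ighm rose in untreated cells and fell in treated ones, and Pkm fell in untreated cells with a treated change of -0.04.

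Genes were then sorted by their calls against untreated cells, of which there were 2844 at 18 h (24.3%) and 1786 at 3 h (15.2%). Transient genes were called at 3 h and not at 18 h with a called interaction, which held 359 genes higher at 3 h and 232 lower. Late genes were called at 18 h and not at 3 h with a called interaction, which held 515 higher and 446 lower. Sustained genes were called in the same direction at both times. Among these, 263 higher and 168 lower genes had no called interaction (steady), 90 higher and 11 lower had a smaller response at 18 h (waning), and 25 higher and 9 lower had a larger one (growing). Leaving out 1 library changed the growing class to between 16 genes (without replicate 2 of the untreated group at 3 h) and 40 (without replicate 4 of the untreated group at 18 h). A further 83 genes were higher at 3 h and lower at 18 h, 41 were lower at 3 h and higher at 18 h (reversed), and 133 had a called interaction with neither time called. Called at 1 time without a called interaction were 786 higher and 912 lower genes, which were not sorted, because a call at 1 time only does not show that the times differ. By source, the transient higher genes were 209 treated-led, 65 drift-led and 85 not separated, the waning higher genes 51, 28 and 11, the growing higher genes 14, 9 and 2, and the genes reversed from higher to lower 57, 8 and 18. These classes describe the calls that made them. The threshold cuts a continuous range: just inside it lay Atp6v1d (interaction 0.35 ± 0.13, adjusted p = 0.0497) and just outside it Cnn2 (-0.89 ± 0.31, adjusted p = 0.0501).

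**Figure D2:**
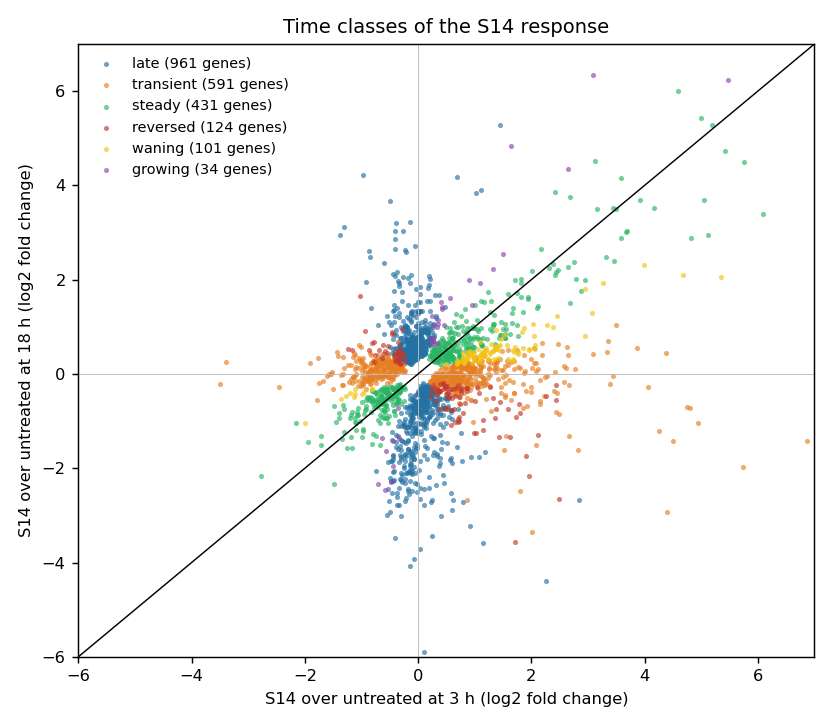
The y axis is the log2 fold change of S14 over untreated cells at 18 h and the x axis that at 3 h, with 1 point per gene and colours for the time classes. Transient genes lie along the horizontal axis, late genes along the vertical axis, steady genes along the diagonal, and reversed genes in the upper left and lower right quadrants.

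Secreted inflammatory proteins were among the genes whose fold over untreated cells was smaller at 18 h than at 3 h. Of 30 inflammatory cytokine and chemokine genes tested, 11 had a negative interaction, against 8.98% of all genes, and 0 a positive one (1 at an unadjusted p under 0.05 in edgeR, 0 called by DESeq2), and the median interaction was -1.41, against 0.01 over all genes. The treated level led in 10 of the 11 and 1 was not separated. By time class 9 of the 30 were steady and higher and 7 transient and higher, against 2.2% and 3.1% of all genes. A further 2 were waning, 2 reversed, and 7 called at 1 time without a called interaction. Tnf had 19.3, 18.1, 19.5 and 16.8 CPM in S14 cells and 15.1, 14.7, 16.5 and 12.8 CPM in untreated cells at 18 h, against 594, 745, 737 and 714 CPM in S14 cells and 171, 153, 196 and 180.3 CPM in untreated cells at 3 h. The S14 libraries stood above all untreated ones at both times, and both cultures had far more at 3 h. Tnf, the cytokine that starts much of the inflammatory cascade, had a log2 fold change over untreated cells of 0.32 ± 0.13 at 18 h (adjusted p = 0.0644) and 1.99 ± 0.09 at 3 h (SE), with an interaction of -1.68 ± 0.16 (adjusted p = 7.33e-11). Its treated change was -5.24 ± 0.11 and its untreated drift -3.56 ± 0.11, so the level fell in both cultures.

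Cxcl1 had 1.40, 0, 0.443 and 0.449 CPM in S14 cells and 1.74, 1.26, 2.66 and 1.58 CPM in untreated cells at 18 h, against 47.5, 64.0, 96.5 and 81.9 CPM in S14 cells and 7.77, 8.78, 11.2 and 13.3 CPM in untreated cells at 3 h. The groups were apart at 3 h and overlapped at 18 h. Cxcl1 and Cxcl2 encode chemokines that attract neutrophils. The interaction was -4.44 ± 0.79 for Cxcl1 (adjusted p = 0.000292) and -2.31 ± 0.29 for Cxcl2 (adjusted p = 1.9e-06), where the means were 7.10 ± 2.38 and 7.24 ± 1.40 CPM in S14 and untreated cells at 18 h, against 751 ± 123 and 158 ± 22.4 CPM at 3 h (SD, n = 4). Cxcl10, an interferon-induced chemokine for T cells, had 83.1, 86.4, 92.4 and 71.2 CPM in S14 cells and 58.8, 41.1, 50.5 and 102 CPM in untreated cells at 18 h, against 1680.2, 2060.4, 1639 and 1559 CPM in S14 cells and 241, 285, 287 and 294 CPM in untreated cells at 3 h. It overlapped between groups at 18 h and was apart at 3 h, and its interaction of -2.24 ± 0.26 was led by the treated level. Without replicate 4 of the untreated group at 18 h, Cxcl10 counted as waning, since its fold at 18 h then passed the threshold.

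Ccl3, a chemokine for monocytes and other leukocytes, had 93.1, 83.4, 86.2 and 73.6 CPM in S14 cells and 102, 98.6, 96.7 and 99.2 CPM in untreated cells at 18 h, against 925, 1155, 1246 and 1214 CPM in S14 cells and 215, 182, 220.1 and 223 CPM in untreated cells at 3 h. At 18 h every S14 library was below every untreated one and at 3 h above, and the gene was reversed (log2 fold change -0.24 ± 0.09 at 18 h and 2.43 ± 0.09 at 3 h). Csf1, the growth factor on which macrophages depend, was reversed too, at -0.55 ± 0.17 and 2.43 ± 0.15, with an untreated drift of 0.16 ± 0.16. Il1b, a fever-inducing cytokine that needs cleavage before release, had 12.8, 9.06, 17.5 and 12.6 CPM in S14 cells and 1.94, 5.06, 1.54 and 3.85 CPM in untreated cells at 18 h, against 327, 515, 625 and 546 CPM in S14 cells and 13.0, 9.23, 11.9 and 15.6 CPM in untreated cells at 3 h. The groups were apart at both times, and S14 libraries were lower at 18 h than at 3 h. Its interaction of -3.29 ± 0.82 (adjusted p = 0.00845) lost its call without replicate 4 (adjusted p = 0.0582) or replicate 2 (adjusted p = 0.0508) of the untreated group at 18 h. Ptgs2, the inducible cyclooxygenase of prostaglandin synthesis, was waning at -1.68 ± 0.56 (adjusted p = 0.0348), a call that ended without replicate 1 or 2 of the S14 group at 18 h, replicate 1, 2 or 4 of the untreated group at 18 h, or replicate 1 of the untreated group at 3 h. In these fits the adjusted p was between 0.0503 and 0.193, the last without replicate 4 of the untreated group at 18 h.

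Sustained chemokine expression was seen beside this. Ccl5, a chemokine for T cells and monocytes, had 1418, 1357, 1571 and 1475 CPM in S14 cells and 48.6, 37.5, 31.9 and 32.7 CPM in untreated cells at 18 h, against 487, 576, 582 and 599 CPM in S14 cells and 18.6, 15.3, 14.7 and 12.5 CPM in untreated cells at 3 h. Every S14 library stood above every untreated one, and both cultures had more at 18 h. Its log2 fold change was 5.28 ± 0.11 at 18 h and 5.19 ± 0.12 at 3 h, an interaction of 0.09 ± 0.16 (adjusted p = 0.777). Steady genes that were lower included Cytip, a regulator of leukocyte adhesion, at -1.32 ± 0.19 at 18 h and -1.71 ± 0.19 at 3 h, and Hpgd, the enzyme that degrades prostaglandins, at -2.32 ± 0.21 and -1.49 ± 0.24. The Hpgd interaction of -0.84 ± 0.32 lay just outside the threshold (adjusted p = 0.0696) and inside it without replicate 4 of the S14 group at 18 h (adjusted p = 0.0291), replicate 2 of the untreated group at 18 h (0.0399), replicate 2 of the S14 group at 3 h (0.0373) or replicate 4 of the untreated group at 3 h (0.0408). It was also called without the filter on low counts (adjusted p = 0.0289), in the fit on 16 libraries (0.0481) and on the spike-in scale (0.00902). Fpr2, a receptor for formyl peptides, was waning at 1.93 ± 0.20 at 18 h and 3.27 ± 0.24 at 3 h. Nos2, the inducible nitric oxide synthase, was called at both times (2.95 ± 0.54 and 5.12 ± 0.33), but its level of 3.09 ± 1.82 CPM in S14 cells at 18 h, against 27.1 ± 4.23 CPM at 3 h, had fallen (-3.16 ± 0.25, adjusted p = 1.91e-11). It counted as steady because its interaction of -2.17 ± 0.94 missed the threshold (adjusted p = 0.118). The untreated libraries held 9 reads in all at 18 h and 13 at 3 h. The Nos2 interaction was called without replicate 3 of the S14 group (adjusted p = 0.0392) or replicate 2 of the untreated group (0.0399) at 18 h. It was also called without the filter on low counts (adjusted p = 0.0311), on the spike-in scale (0.0124) and by DESeq2 (0.0112). Il6 and Il12b, cytokines of the acute-phase and T cell responses, were detected almost entirely in S14 cells at 3 h. Il6 had 1, 0, 157 and 1 reads in S14 at 18 h, untreated at 18 h, S14 at 3 h and untreated at 3 h, and Il12b 6, 2, 216 and 2. The interaction was not called for either gene (adjusted p = 0.966 and 0.202). DESeq2 called it for Il6 (adjusted p = 0.00945). For Il12b edgeR called it without replicate 3 of the S14 group at 18 h (adjusted p = 0.0217) and on the spike-in scale with and without replicate 4 of the untreated group at 18 h (adjusted p = 0.0372 and 0.027). Adamts4, a matrix protease with 1, 7, 207 and 3 reads in the same order, was called transient, but not without replicate 3 of the untreated group at 18 h (adjusted p = 0.939). Il10, an anti-inflammatory cytokine, was not called at either time (at 18 h it was without replicate 4 of the untreated group, adjusted p = 0.0307), and its interaction was -0.13 ± 0.36 (adjusted p = 0.861).

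**Figure D3:**
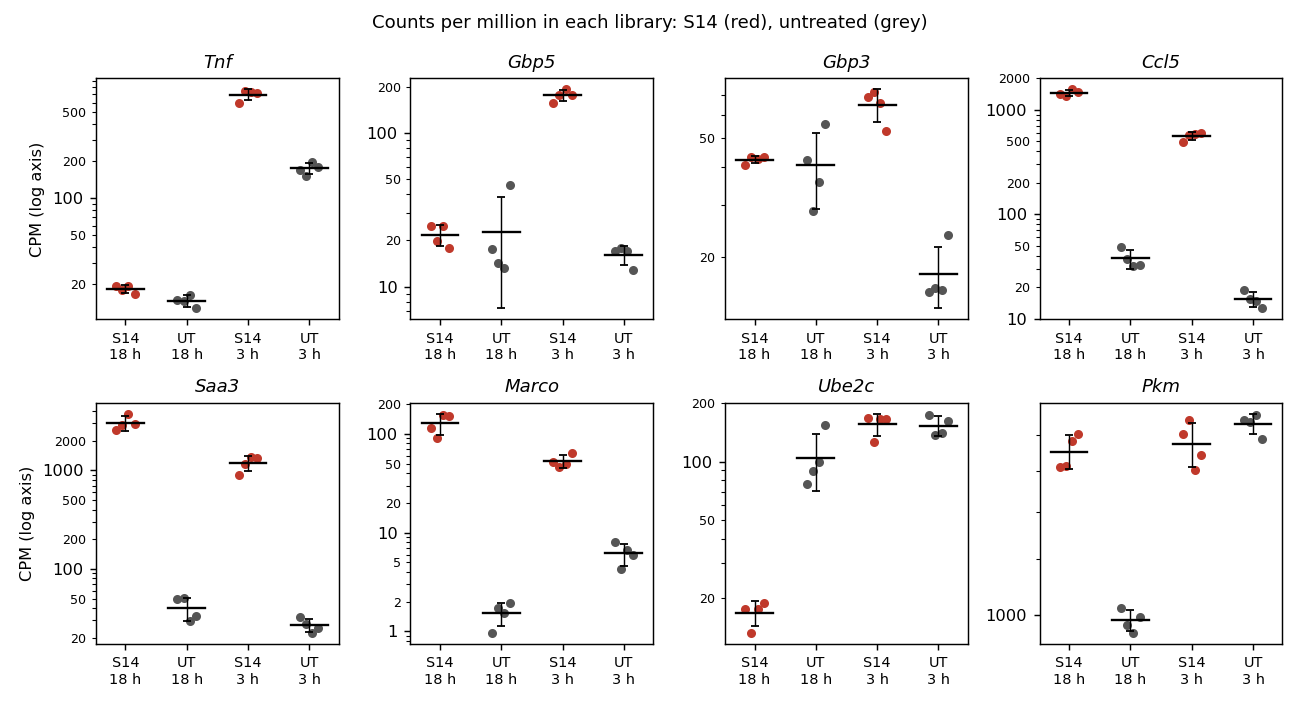
Points are CPM in each library on a log axis, with the mean (bar) and SD (whiskers) of 4 libraries per group; S14 groups are red and untreated (UT) groups grey, from left to right S14 at 18 h, untreated at 18 h, S14 at 3 h and untreated at 3 h. The S14 level of Tnf and Gbp5 is lower at 18 h than at 3 h, the untreated level of Gbp3 is higher at 18 h, Ccl5 stays apart at both times, Saa3 and Marco are apart at both times with the highest levels in S14 cells at 18 h, Ube2c is lowest in S14 cells at 18 h, and Pkm is low only in untreated cells at 18 h.

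The feedback arm of NF-kB followed the same course, and its called interactions were all treated-led. Of 24 NF-kB subunit and inhibitor genes tested, 15 had a negative interaction, against 8.98% of all genes, and all 15 were treated-led. A positive one was called for 0 (0 at an unadjusted p under 0.05 in edgeR, 0 called by DESeq2), and the median was -0.77. At 3 h, 22 of the 24 were higher in S14 cells, against 9.05% of all genes, and at 18 h 8 were, against 12.6%. Tnfaip3 had 6.58, 8.03, 7.98 and 7.86 CPM in S14 cells and 10.3, 6.32, 10.5 and 15.8 CPM in untreated cells at 18 h, against 64.9, 61.6, 75.2 and 85.8 CPM in S14 cells and 24.0, 28.6, 22.4 and 24.8 CPM in untreated cells at 3 h. The S14 libraries were above the untreated ones at 3 h and overlapped them at 18 h. Tnfaip3 encodes A20, a ubiquitin-editing inhibitor of NF-kB signalling, and its interaction was -2.02 ± 0.23 (adjusted p = 1.89e-08). Nfkbiz, an inhibitor-like NF-kB cofactor, had -1.54 ± 0.26, and Socs1, the suppressor of cytokine signalling by JAK kinases, -1.79 ± 0.35. By 18 h 23 of the 24 had fallen in S14 cells, against 22.2% of all genes, and 17 in untreated cells, against 19.6%. Among 22 immediate early transcription factor genes, 8 had a negative and 1 a positive interaction, against 8.98% and 7.61% of all genes. Egr1, a growth factor-induced zinc finger factor, was reversed: the means were 2.13 ± 0.287 and 4.16 ± 1.34 CPM in S14 and untreated cells at 18 h, against 53.6 ± 16.3 and 24.5 ± 3.73 CPM at 3 h (SD, n = 4). Mt2, a metal-binding metallothionein, was reversed as well, at -0.75 ± 0.12 at 18 h and 1.59 ± 0.11 at 3 h.

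Of 21 Toll-like receptor and adaptor genes tested, 8 had a negative and 4 a positive interaction, against 8.98% and 7.61% of all genes. With spike-in scaling 12 were negative and no positive interaction was called, and on that scale without replicate 4 of the untreated group at 18 h 9 were negative, again with no positive one. Over all 11717 genes 4095 were negative and 20 positive with spike-in scaling, and 1391 and 25 without that replicate. A separate list of 18 inflammasome sensor, caspase and gasdermin genes had 4 negative and 1 positive interaction, against 8.98% and 7.61% of all genes. Its median interaction was -0.004. Nlrp3, the sensor of the canonical inflammasome, had 13.8, 14.4, 13.5 and 13.9 CPM in S14 cells and 19.9, 17.4, 21.7 and 22.8 CPM in untreated cells at 18 h, against 164, 147, 205 and 199.7 CPM in S14 cells and 37.4, 55.4, 54.1 and 84.3 CPM in untreated cells at 3 h. The S14 libraries were below the untreated ones at 18 h, though the fold of -0.55 ± 0.21 there was not called (adjusted p = 0.0527), and above them at 3 h (1.64 ± 0.17). Its interaction was -2.19 ± 0.26 (adjusted p = 7.28e-07). Irak2, a kinase of Toll-like receptor signalling, was transient at -1.43 ± 0.14, and Casp4, the caspase that senses cytosolic LPS in the mouse, at -0.95 ± 0.19, although Casp4 counted as waning without replicate 4 of the untreated group at 18 h. Tlr1, a partner of Tlr2, was waning and drift-led: its treated change was -0.11 ± 0.11 (adjusted p = 0.463) while the untreated level rose (1.25 ± 0.12). Tlr4, the LPS receptor, had 82.9, 91.6, 75.1 and 72.8 CPM in S14 cells and 90.4, 90.1, 91.8 and 96.8 CPM in untreated cells at 18 h, against 50.4, 51.8, 42.4 and 49.5 CPM in S14 cells and 89.2, 80.6, 77.9 and 75.8 CPM in untreated cells at 3 h. It was lower in all S14 libraries at 3 h and overlapped at 18 h, an interaction of 0.54 ± 0.15 (adjusted p = 0.00654) that was -0.59 on the spike-in scale and -0.03 on that scale without replicate 4 of the untreated group at 18 h.

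Genes that exchange signals with T cells had smaller or opposite folds at 18 h among several of those called. Of 12 costimulatory and checkpoint ligand genes tested, 6 had a negative interaction, against 8.98% of all genes, with a median of -1.26. A positive one was called for 0 (1 at an unadjusted p under 0.05 in edgeR, 0 called by DESeq2). Of the 6 negative ones, 2 were transient, 2 waning, 1 reversed and 1 late. Cd40, the receptor through which T cells activate macrophages, had 28.9, 18.9, 29.0 and 27.4 CPM in S14 cells and 26.5, 18.5, 25.4 and 25.7 CPM in untreated cells at 18 h, against 196, 231, 241 and 235 CPM in S14 cells and 40.5, 34.5, 40.1 and 33.5 CPM in untreated cells at 3 h. The groups overlapped at 18 h and were apart at 3 h, and the interaction was -2.49 ± 0.17 (adjusted p = 1.74e-14) with an untreated drift of -0.63 ± 0.12. Icosl, the ligand of the T cell costimulator ICOS, had an interaction of -2.11 ± 0.23 and counted as transient, or as reversed without replicate 4 of the untreated group at 18 h. Cd83, a surface marker of activated antigen-presenting cells, was reversed at -1.34 ± 0.13 at 18 h and 1.63 ± 0.12 at 3 h, and all S14 libraries were below the untreated ones at 18 h. Cd69, an early activation antigen of leukocytes, is not one of the 12 and had a log2 fold change of 3.33 ± 0.16 at 3 h and an interaction of -2.87 ± 0.34.

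The interferon-stimulated genes also had smaller folds at 18 h, but in this list the untreated level led more members than the treated level did. Of 47 antiviral interferon-stimulated genes tested, 32 had a negative and 2 a positive interaction, against 8.98% and 7.61% of all genes, with a median of -0.72. The untreated level led in 16 of these 34 genes, the treated level in 11, and 7 were not separated. In untreated cells 32 of the 47 rose by 18 h, against 19.2% of all genes, and 1 fell. At 18 h 23 of the 47 were higher in S14 cells, against 12.6% of all genes, and at 3 h 41 were, against 9.05%. Of 14 guanylate-binding protein and immunity-related GTPase genes, large GTPases that attack vacuoles of intracellular microbes, 10 had a negative interaction, against 8.98% of all genes. Of these 10, 3 were treated-led, 3 drift-led and 4 not separated. On the spike-in scale without replicate 4 of the untreated group at 18 h the antiviral list had 34 negative interactions, against 1391 of all 11717 genes.

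Gbp5 and Gbp3 differ in how far the treated level subsided and the untreated level rose, and in Gbp3 both levels moved. Gbp5 had 24.7, 20.0, 24.8 and 17.7 CPM in S14 cells and 17.6, 14.2, 13.3 and 45.9 CPM in untreated cells at 18 h, against 157, 177, 192 and 177 CPM in S14 cells and 17.0, 17.8, 17.2 and 12.8 CPM in untreated cells at 3 h. The S14 libraries were higher than all untreated ones at 3 h and overlapped them at 18 h. The treated change was -3.01 ± 0.27 and the untreated drift 0.47 ± 0.31 (adjusted p = 0.259), and replicate 4 carried the highest untreated value at 18 h. Without it the drift was -0.13 and the gene was waning, with an interaction of -2.88. Gbp3 had 40.9, 43.2, 42.5 and 43.3 CPM in S14 cells and 42.2, 28.6, 35.8 and 55.8 CPM in untreated cells at 18 h, against 69.0, 71.3, 65.8 and 53.1 CPM in S14 cells and 15.3, 15.8, 15.6 and 23.7 CPM in untreated cells at 3 h. The groups overlapped at 18 h and were apart at 3 h, and every untreated library had more at 18 h than at 3 h. The treated change was -0.60 ± 0.15 and the untreated drift 1.21 ± 0.17, an interaction of -1.81 ± 0.23 (adjusted p = 1.57e-06) that was drift-led, or not separated without replicate 4.

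The promoters of 4 genes whose courses differ are shown because the data bear on genes that share an early rise. They are those of Cxcl1 and Gbp5 (treated-led), Gbp3 (drift-led, or not separated without replicate 4 of the untreated group at 18 h) and Marco (growing). Each is the RefSeq sequence of the 250 bases before the annotated start, in GRCm38.p6, 5′ to 3′ on the gene's strand. Capitals mark matches to an NF-kB motif (GGG, 2 letters of any kind, TT, 1 of any kind and CC) or to an interferon-stimulated response element (ISRE: GAAA, 2 letters of any kind and GAAA), on either strand, so that the letters may be the reverse complement.
Cxcl1, chr5:90890995-90891244, plus strand: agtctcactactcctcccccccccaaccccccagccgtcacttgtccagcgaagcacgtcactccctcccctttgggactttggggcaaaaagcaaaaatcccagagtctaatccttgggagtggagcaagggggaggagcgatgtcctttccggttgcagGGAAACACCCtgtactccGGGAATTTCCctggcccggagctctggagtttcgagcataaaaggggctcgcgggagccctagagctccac
Gbp5, chr3:142496684-142496933, plus strand: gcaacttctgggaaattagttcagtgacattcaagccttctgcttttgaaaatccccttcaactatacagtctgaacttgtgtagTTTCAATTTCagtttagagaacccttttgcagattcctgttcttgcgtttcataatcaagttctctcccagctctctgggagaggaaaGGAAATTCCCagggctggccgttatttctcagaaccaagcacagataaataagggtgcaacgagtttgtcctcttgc
Gbp3, chr3:142559794-142560043, plus strand: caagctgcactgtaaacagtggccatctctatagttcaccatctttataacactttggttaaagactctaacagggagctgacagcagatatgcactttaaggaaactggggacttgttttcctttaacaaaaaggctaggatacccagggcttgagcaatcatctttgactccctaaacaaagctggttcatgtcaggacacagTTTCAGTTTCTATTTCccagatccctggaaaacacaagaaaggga
Marco, chr1:120505025-120505274, minus strand: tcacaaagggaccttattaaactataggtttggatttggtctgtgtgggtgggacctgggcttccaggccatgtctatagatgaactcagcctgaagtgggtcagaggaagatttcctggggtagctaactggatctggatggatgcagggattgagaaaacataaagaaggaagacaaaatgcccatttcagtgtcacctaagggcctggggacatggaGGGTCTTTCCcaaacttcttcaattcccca
Cxcl1 held a pair of NF-kB matches, 89 to 80 and 71 to 62 bases before the start, Gbp5 1 ISRE match 165 to 156 bases and 1 NF-kB match 77 to 68 bases before it, Gbp3 a pair of overlapping ISRE matches between 45 and 30 bases before it, and Marco 1 NF-kB match 30 to 21 bases before it. A second RefSeq start of Gbp3 held neither. Over 32851 RefSeq promoters of that length, 4.11% held the NF-kB motif and 2.98% the ISRE motif. A match describes the letters only and is not a measured binding site. Promoters could be matched by symbol for 8805 of the 11717 genes (75.1%), below the 80% needed to compare shares between classes, so that comparison is void and no share by class is given.

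Among the other antiviral genes, Ifit1, which binds viral RNA, had 701, 599.6, 682 and 599.7 CPM in S14 cells and 581, 533, 518 and 1677 CPM in untreated cells at 18 h, against 2274, 2724, 2302 and 2102 CPM in S14 cells and 589.8, 692, 616 and 617 CPM in untreated cells at 3 h. The groups overlapped at 18 h, where replicate 4 of the untreated group was far above the other 3, and were apart at 3 h. Its interaction was -2.26 ± 0.39 (adjusted p = 0.00039), or -1.65 without that replicate. Rsad2, the antiviral enzyme viperin, had -1.86 ± 0.22, and Cmpk2, a mitochondrial nucleotide kinase, -1.67 ± 0.17, both treated-led. Of 20 MHC class I and peptide-loading genes 18 rose in untreated cells, against 19.2% of all genes. Of the 20, 5 had a negative and 2 a positive interaction, against 8.98% and 7.61% of all genes, and all 5 negative ones were drift-led. Nlrc5, the transactivator of MHC class I genes, had 35.7, 39.9, 41.7 and 36.6 CPM in S14 cells and 34.3, 31.1, 40.7 and 41.3 CPM in untreated cells at 18 h, against 38.0, 40.5, 38.4 and 33.9 CPM in S14 cells and 18.8, 17.3, 20.0 and 19.2 CPM in untreated cells at 3 h. The treated change was 0.03 ± 0.11 (adjusted p = 0.842), while every untreated library had more at 18 h than at 3 h (0.97 ± 0.12). Tap2, a subunit of the peptide transporter, was drift-led too at -0.85 ± 0.24 (adjusted p = 0.0165), and waning without replicate 4.

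All 7 MHC class II genes tested rose in both cultures, against 21.0% of all genes in S14 cells and 19.2% in untreated cells. H2-Ab1, a class II beta chain, rose by 0.97 ± 0.09 in S14 cells and 1.90 ± 0.10 in untreated cells, and its interaction of -0.93 ± 0.13 (adjusted p = 1.77e-06) was drift-led. Cd74, the invariant chain that guides class II molecules, was late and lower: its means were 454 ± 31.8 and 893 ± 353 CPM in S14 and untreated cells at 18 h, against 196 ± 23.4 and 159 ± 15.0 CPM at 3 h (SD, n = 4). Replicate 4 was the highest untreated library at 18 h, with 1423 CPM, and without it Cd74 was reversed with an interaction of -0.95. Calhm6, a channel family member induced by interferon, had an untreated drift of 2.80 ± 0.26 and a treated change of 0.49 ± 0.20. Slc30a1, a zinc exporter, had a drift of 1.45 ± 0.18 and a treated change of 0.32 ± 0.17 (adjusted p = 0.116).

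A smaller set of genes fell early and came back. Transient lower genes numbered 232, of which the treated level led in 190, the untreated level in 7, and 35 were not separated. In 109 of the 190 the untreated level rose as well. Cxcr4 had 136, 140.2, 110.3 and 121 CPM in S14 cells and 139.7, 148, 117 and 161 CPM in untreated cells at 18 h, against 17.6, 16.0, 15.2 and 18.0 CPM in S14 cells and 57.9, 62.2, 43.6 and 51.8 CPM in untreated cells at 3 h. All S14 libraries were below the untreated ones at 3 h, and the groups overlapped at 18 h. Cxcr4, the receptor that holds leukocytes in the bone marrow, had a log2 fold change of -0.16 ± 0.12 at 18 h and -1.69 ± 0.14 at 3 h, and its interaction was 1.53 ± 0.19 (adjusted p = 4.8e-08). Zc3h12d, a factor of cytokine mRNA decay, was transient and lower too (1.11 ± 0.19). Arl4c and Mylip, both induced by the sterol receptor LXR, had interactions of 1.54 ± 0.16 and 1.11 ± 0.27. On the spike-in scale the interaction was not called for Cxcr4 (0.35), Zc3h12d (0.08), Arl4c (0.52) or Mylip (0.08). On that scale without replicate 4 of the untreated group at 18 h Cxcr4 (1.02) was called. Zc3h12d (0.46), Arl4c (0.88) and Mylip (0.48) were not. Of 15 LXR targets and cholesterol efflux genes 5 were positive and 1 negative, against 7.61% and 8.98% of all genes (median 0.36). But on the spike-in scale without replicate 4 the median was -0.26 with 0 positive, where 25 of all 11717 genes were positive. Abca1, the cholesterol exporter and an LXR target, was steady: 0.48 ± 0.13 at 18 h and 0.57 ± 0.14 at 3 h, an interaction of -0.08 ± 0.19 (adjusted p = 0.826).

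Genes of sphingolipid metabolism, the pathways that make and break down the lipid class of S14, had 3 positive and 2 negative interactions among 32 tested, close to the 7.61% and 8.98% of all genes. Scaled to the spike-ins without replicate 4 of the untreated group at 18 h, 3 were negative and none was positive, against 1391 and 25 of all 11717 genes. Cerk, which phosphorylates ceramide, was transient and lower, with 213, 235, 199 and 205 CPM in S14 cells and 252, 250.1, 243 and 233 CPM in untreated cells at 18 h, against 59.4, 56.9, 52.9 and 55.1 CPM in S14 cells and 118, 107, 114 and 106 CPM in untreated cells at 3 h. The S14 libraries were all lower at 3 h and overlapped at 18 h, an interaction of 0.79 ± 0.12 that was -0.31 on the spike-in scale and 0.18 on that scale without replicate 4 of the untreated group at 18 h. Without that replicate it counted as waning on the scale used here. Cers6, a ceramide synthase, was transient and higher (-1.14 ± 0.14), with an untreated drift of -0.01 ± 0.10. Sgms1, the Golgi sphingomyelin synthase, was reversed at -0.48 ± 0.13 at 18 h and 0.54 ± 0.12 at 3 h. Psap, the precursor of the saposins that assist sphingolipid breakdown in the lysosome, was late and higher, with 2186, 2089, 1958 and 1672 CPM in S14 cells and 841, 586, 504 and 236 CPM in untreated cells at 18 h, against 803, 988, 582 and 631 CPM in S14 cells and 891, 1031, 1001 and 892 CPM in untreated cells at 3 h. The S14 libraries were above all untreated ones at 18 h, and the groups overlapped at 3 h. Its interaction was 2.21 ± 0.52 (adjusted p = 0.00538), and the source was not separated. Of 27 lysosome genes 7 were positive and 3 negative, against 7.61% and 8.98% of all genes. Late and higher were 5, against 4.40% of all genes, and late and lower 2, against 3.81%. Scaled to the spike-ins, 1 lysosome gene was positive and 11 were negative, against 20 and 4095 of all 11717 genes. On that scale without replicate 4 of the untreated group at 18 h, 1 was positive and 2 were negative, against 25 and 1391.

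Of 25 acute-phase and antimicrobial effector genes tested 8 had a positive and 1 a negative interaction, against 7.61% and 8.98% of all genes, with a median of 0.01. Scaled to the spike-ins, 2 were positive and 9 negative (median -1.08), and on that scale without replicate 4 of the untreated group at 18 h 3 and 3 (median -0.55). Over all 11717 genes these counts were 20 and 4095, and 25 and 1391 without that replicate. Saa3 had 2544, 2901, 3764 and 2993 CPM in S14 cells and 49.0, 50.3, 29.4 and 33.1 CPM in untreated cells at 18 h, against 907, 1153, 1369 and 1344 CPM in S14 cells and 32.3, 27.5, 22.4 and 25.3 CPM in untreated cells at 3 h. Every S14 library stood above every untreated one at both times. Saa3, an acute-phase apolipoprotein, had a log2 fold change of 6.24 ± 0.20 at 18 h and 5.47 ± 0.20 at 3 h. Its interaction of 0.77 ± 0.25 (adjusted p = 0.0387) was lost without replicate 3 or 4 of the S14 group at 18 h, replicate 3 or 4 of the untreated group at 18 h, replicate 1 or 2 of the S14 group at 3 h, or replicate 1, 2 or 4 of the untreated group at 3 h. The adjusted p in these fits was between 0.0508 and 0.0993. The interaction was -0.25 on the spike-in scale and 0.11 on that scale without replicate 4 of the untreated group at 18 h. Lcn2, which captures bacterial iron carriers, was steady at 5.43 ± 0.58 and 4.99 ± 0.73.

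Marco had 115, 90.4, 157 and 152 CPM in S14 cells and 0.968, 1.74, 1.54 and 1.93 CPM in untreated cells at 18 h, against 51.7, 45.9, 49.3 and 63.7 CPM in S14 cells and 8.01, 4.28, 6.60 and 5.87 CPM in untreated cells at 3 h. The groups were apart at both times, the S14 libraries higher at 18 h than at 3 h and the untreated libraries lower. Marco is a scavenger receptor for bacteria and particles, and its interaction of 3.25 ± 0.62 (adjusted p = 0.000923) combined a treated change of 1.28 ± 0.25 and an untreated drift of -1.97 ± 0.57, which were not separated. Hp, the haemoglobin-binding haptoglobin, was growing at 1.71 ± 0.59 (adjusted p = 0.0388), a call lost without replicate 3 or 4 of the S14 group at 18 h, replicate 1 or 3 of the untreated group at 18 h, replicate 2 of the S14 group at 3 h, or replicate 1 or 3 of the untreated group at 3 h (adjusted p between 0.0524 and 0.194). Ednrb, the endothelin receptor B, was growing at 1.04 ± 0.26. Neither Hp (0.78) nor Ednrb (0.08) was called on the spike-in scale. Without replicate 4 of the untreated group at 18 h they were not called on that scale either (1.20 and 0.40). Slpi, a protease inhibitor that dampens inflammation, was late, with 20.1, 15.4, 22.4 and 24.2 CPM in S14 cells and 0.194, 0.949, 1.12 and 2.10 CPM in untreated cells at 18 h, against 2.33, 2.12, 1.48 and 3.39 CPM in S14 cells and 1.88, 0.225, 2.64 and 1.02 CPM in untreated cells at 3 h. The groups were apart at 18 h and overlapped at 3 h, and the interaction was 3.49 ± 0.67 (adjusted p = 0.000211). Ccl8, a monocyte chemokine, rose in both cultures, with treated and untreated changes of 6.16 ± 0.23 and 3.34 ± 0.38 and 1975, 176, 27 and 12 reads in S14 at 18 h, untreated at 18 h, S14 at 3 h and untreated at 3 h. Of 9 neutrophil markers 3 passed the filter on low counts, Ly6g had 0 reads, and the summed levels were 39.3 to 64.3 CPM in S14 and 11.9 to 18.6 CPM in untreated cells at 18 h, against 19.8 to 28.2 CPM in S14 and 20.0 to 30.1 CPM in untreated cells at 3 h. Mmp8, described next, is one of these markers, with 818 and 314 reads in S14 and untreated cells at 18 h, and the part of such cells in these results was not tested.

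Late genes that were higher held a treated-led and a larger drift-led group. Of the 515 genes, the treated level led in 151, the untreated level in 198, and 166 were not separated. Among the treated-led genes were Pla2g7, the enzyme that inactivates platelet-activating factor (1.34 ± 0.19), the fatty acid carrier Fabp5 (1.41 ± 0.22), the collagenase Mmp8 (2.19 ± 0.27) and Nxpe5. Nxpe5 had 91.7, 92.4, 97.7 and 91.8 CPM in S14 cells and 23.4, 18.3, 28.1 and 28.2 CPM in untreated cells at 18 h, against 13.2, 9.88, 12.0 and 10.3 CPM in S14 cells and 15.1, 12.4, 15.0 and 15.1 CPM in untreated cells at 3 h. All S14 libraries were above the untreated ones at 18 h, and the groups overlapped at 3 h (interaction 2.27 ± 0.22, adjusted p = 1.54e-10). Scaled to the spike-ins, none of these 4 was called (1.12 for Nxpe5, 1.22 for Mmp8, 0.10 for Pla2g7 and 0.49 for Fabp5). On that scale without replicate 4 of the untreated group at 18 h Nxpe5 (1.74), Mmp8 (1.53) and Pla2g7 (0.98) were called and Fabp5 (0.64) was not.

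In all 198 drift-led late higher genes the untreated level fell, as the label requires, while the S14 level fell in 31 and rose in 3. Pkm had 1620, 1626, 1762 and 1801 CPM in S14 cells and 1023, 967, 943 and 994 CPM in untreated cells at 18 h, against 1804, 1891, 1606 and 1685 CPM in S14 cells and 1886, 1874, 1921 and 1774 CPM in untreated cells at 3 h. The untreated libraries at 18 h lay below all others, and the S14 libraries overlapped between times. Pkm, the last enzyme of glycolysis, had a treated change of -0.04 ± 0.07 (adjusted p = 0.713) and an untreated drift of -0.93 ± 0.07, and its interaction of 0.89 ± 0.10 was -0.23 on the spike-in scale and 0.31 on that scale without replicate 4 of the untreated group at 18 h, called in neither. Of 27 glycolysis and hypoxia genes 20 fell in untreated cells, against 19.6% of all genes, and 20 fell in S14 cells, against 22.2%. A positive interaction was called for 5 of the 27 and a negative one for 3, against 7.61% and 8.98% of all genes. Of 30 oxidative phosphorylation genes 12 had a positive interaction, against 7.61% of all genes, and 0 were called at 3 h in edgeR (2 at an unadjusted p under 0.05). Of the 30, 17 were higher in S14 than in untreated cells at 18 h, against 12.6% of all genes, and 14 were lower at 18 h than at 3 h in untreated cells, against 19.6%. The summed level of the mitochondrially encoded transcripts lay the other way, at 9790 to 12183 CPM in S14 and 13335 to 14641 CPM in untreated cells at 18 h, against 15379 to 17897 CPM in S14 and 13504 to 17519 CPM in untreated cells at 3 h. Of 13 such transcripts 8 passed the filter on low counts, and the others had at most 2 reads in any group. A negative interaction was called for 1 of the 8, against 8.98% of all genes, and a positive one for 0. At 18 h 3 of the 8 were lower in S14 cells, against 11.6% of all genes. Uqcrq, a subunit of complex III, had a treated change of -0.17 ± 0.09 and a drift of -0.97 ± 0.10, and its interaction of 0.81 ± 0.13 was -0.16 on the spike-in scale and 0.10 on that scale without replicate 4. On the spike-in scale without replicate 4 of the untreated group at 18 h, 0 of the 30 oxidative phosphorylation genes had a called interaction, where 1416 of all 11717 genes did. Their median was -0.38 there, against 0.23 on the scale used here.

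The genes of the NRF2 antioxidant programme followed this pattern in part. At 3 h 11 of 26 were already higher in S14 cells, against 9.05% of all genes. Of the 26, 14 had a positive and 3 a negative interaction, against 7.61% and 8.98% of all genes, with a median of 0.50. The untreated level led in 9 of them, the treated level in 4, and 4 were not separated. In untreated cells 19 of the 26 fell by 18 h, against 19.6% of all genes. On the spike-in scale without replicate 4 the list had 2 positive and 4 negative interactions, against 25 and 1391 of all 11717 genes, and a median of -0.03. Nqo1, a quinone reductase, had 12.2, 11.7, 21.5 and 25.8 CPM in S14 cells and 5.61, 4.11, 5.45 and 1.75 CPM in untreated cells at 18 h, against 6.98, 9.17, 6.75 and 7.63 CPM in S14 cells and 8.95, 8.33, 9.46 and 10.2 CPM in untreated cells at 3 h. The groups were apart at 18 h and overlapped at 3 h, with an interaction of 2.33 ± 0.43 (adjusted p = 8.79e-05). Me1, the malic enzyme that supplies NADPH, was drift-led (-0.58 ± 0.26 treated, -2.22 ± 0.29 untreated), and so were Atf5, a factor of the integrated stress response (0.39 ± 0.13 and -0.87 ± 0.14), and Mthfd2, a mitochondrial folate enzyme (-0.17 ± 0.12 and -1.16 ± 0.13). Scaled to the spike-ins, the interaction was not called for Me1 (0.82), Atf5 (0.03) or Mthfd2 (0.06). Without replicate 4 of the untreated group at 18 h it was not called on that scale either (0.81, 0.81 and 0.24). Slc7a11, the cystine importer, was steady with an interaction of -1.12 ± 0.48 (adjusted p = 0.117; 0.0436 without replicate 2 of the S14 group at 3 h, 0.0203 without the filter on low counts and 0.0102 on the spike-in scale). Of 20 genes of ER chaperones and the unfolded protein response 8 were positive and 1 negative, against 7.61% and 8.98% of all genes. But the 8 positive calls were absent on the spike-in scale without replicate 4, where 25 of all 11717 genes were positive. Pdia4, a protein disulfide isomerase, was reversed, at 0.90 ± 0.15 at 18 h and -0.46 ± 0.15 at 3 h, and Sec61b, a translocon subunit, was drift-led at 0.79 ± 0.17, or -0.24 on the spike-in scale and 0.13 on that scale without replicate 4. The Pdia4 interaction was 0.36 on the spike-in scale and 0.68 on that scale without replicate 4, called in neither.

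**Figure D4:**
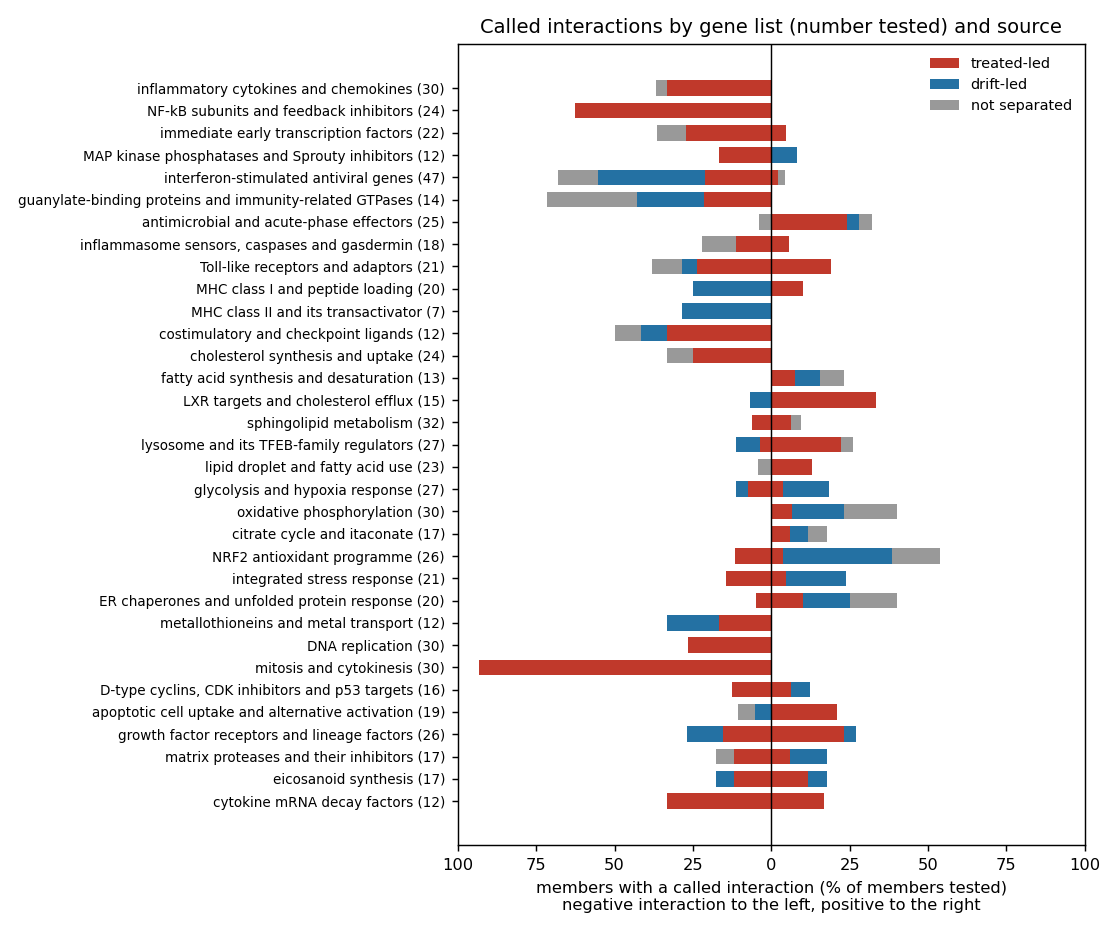
Bars give the share of each list's tested members with a called interaction, in % of members tested (number in brackets), negative to the left and positive to the right, coloured by which level moved more. The mitosis list has 28 of 30 members to the left, all treated-led, the antiviral list mixes treated-led and drift-led members, and the NRF2 list lies mostly to the right with 9 drift-led members.

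Of the 33 gene lists, that of mitosis and cytokinesis had the highest share of called interactions. Of 30 mitosis and cytokinesis genes tested, 28 had a negative interaction, against 8.98% of all genes, all 28 were treated-led, and the median was -1.73. At 18 h all 30 were lower in S14 cells, against 11.6% of genes, and at 3 h 2 were, against 6.2%. The level of all 30 fell in S14 cells, against 22.2% of all genes, and that of 25 fell in untreated cells, against 19.6%. Ube2c had 17.5, 13.2, 17.5 and 18.6 CPM in S14 cells and 76.4, 89.0, 100.0 and 153 CPM in untreated cells at 18 h, against 167, 126, 166 and 165 CPM in S14 cells and 174, 137, 139.7 and 162 CPM in untreated cells at 3 h. The S14 libraries at 18 h lay below all others, and the groups overlapped at 3 h. Ube2c, the ubiquitin-conjugating enzyme of the anaphase-promoting complex, had an interaction of -2.67 ± 0.24 (adjusted p = 3.51e-09). The cyclins Ccna2 and Ccnb2 had -2.47 ± 0.24 and -2.31 ± 0.23. Kif23, Aspm and Cenpf, proteins of the spindle, the cleavage furrow and the kinetochore, were already lower at 3 h (-0.59 ± 0.15, -0.71 ± 0.20 and -0.48 ± 0.17) and more so at 18 h (-2.46 ± 0.17, -2.33 ± 0.23 and -2.28 ± 0.20).

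Of 30 DNA replication genes tested 8 had a negative interaction, against 8.98% of all genes, all treated-led, and 22 were lower in S14 cells at 18 h, against 11.6%. Rrm2 and Tyms, which supply deoxynucleotides, had -1.95 ± 0.25 and -1.69 ± 0.27, and Tk1, the thymidine kinase of S phase, -1.51 ± 0.24. On the spike-in scale without replicate 4 of the untreated group at 18 h the mitosis list had 29 negative interactions, against 1391 of all 11717 genes, with a median of -2.27. In a bulk sample fewer cells of a kind and less RNA per cell cannot be told apart.

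Other late lower genes included transcription factors, surface receptors and enzymes of lipid synthesis. Id3, an inhibitor of helix-loop-helix factors, had 1.20, 1.65, 4.21 and 1.57 CPM in S14 cells and 8.32, 8.85, 11.7 and 12.3 CPM in untreated cells at 18 h, against 97.4, 104, 121 and 131 CPM in S14 cells and 123, 139, 175 and 177 CPM in untreated cells at 3 h. Both cultures had less at 18 h, and there the S14 libraries were below the untreated ones (interaction -1.83 ± 0.39, adjusted p = 0.00115). Cx3cr1, the fractalkine receptor, had an interaction of -1.49 ± 0.43 (adjusted p = 0.0204). Clec10a, a lectin of alternatively activated macrophages, and Atp6v0d2, a subunit of the proton pump, were drift-led, with untreated drifts of 1.94 ± 0.15 and 1.73 ± 0.16. Of 24 cholesterol synthesis and uptake genes 8 had a negative interaction, against 8.98% of all genes (median -0.49). Sc5d, a late enzyme of that pathway, was at -0.52 ± 0.18 at 18 h and 0.48 ± 0.18 at 3 h. Without replicate 4 of the untreated group at 18 h its fold at 18 h was not called (-0.45, adjusted p = 0.11). Ighm, the immunoglobulin heavy chain of B cells, had 23.7, 12.6, 19.3 and 21.1 CPM in S14 cells and 123, 95.6, 136 and 173 CPM in untreated cells at 18 h, against 43.9, 39.0, 37.7 and 41.9 CPM in S14 cells and 39.3, 30.6, 40.1 and 42.1 CPM in untreated cells at 3 h. At 18 h all S14 values were below the untreated ones, and at 3 h they overlapped. Its interaction of -2.88 ± 0.24 (adjusted p = 2.03e-11) was drift-led, and it was the only one of 5 B cell markers to pass the filter on low counts. Their summed level was 13.4 to 24.3 CPM in S14 and 96.4 to 174 CPM in untreated cells at 18 h, against 38.4 to 44.7 CPM in S14 and 32.2 to 42.9 CPM in untreated cells at 3 h. Of the other B cell markers Cd79a, Ms4a1 and Pax5 had at most 2 reads in any group. Cd79b had 19, 28, 15 and 17 reads in S14 at 18 h, untreated at 18 h, S14 at 3 h and untreated at 3 h. The part of B cells in these results was not tested.

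All 9 macrophage markers passed the filter on low counts. Their summed levels were 32258 to 33386 CPM in S14 and 31617 to 45447 CPM in untreated cells at 18 h, against 18974 to 20832 CPM in S14 and 19427 to 20761 CPM in untreated cells at 3 h. Csf1r, the receptor for CSF1, had an interaction of 0.17 ± 0.12 (adjusted p = 0.389). Mertk, the receptor for uptake of dying cells, had 131, 143, 137 and 138 CPM in S14 cells and 109, 105, 106 and 63.7 CPM in untreated cells at 18 h, against 14.0, 15.5, 5.27 and 8.31 CPM in S14 cells and 21.9, 32.0, 24.0 and 16.3 CPM in untreated cells at 3 h. It was higher in all S14 libraries at 18 h and lower in all at 3 h, and both cultures had more at 18 h (interaction 1.69 ± 0.32, adjusted p = 0.000505). Without replicate 4 of the untreated group at 18 h it was transient instead of reversed. Scd2, a fatty acid desaturase, was reversed in the same way, at 0.84 ± 0.13 at 18 h and -0.47 ± 0.13 at 3 h. Scaled to the spike-ins, the interaction was called for neither Mertk (0.68) nor Scd2 (0.11). Without replicate 4 of the untreated group at 18 h it was not called on that scale either (0.90 and 0.79).

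The LPS libraries share no library with the S14 contrasts and give a separate view of how the same genes move with time under stimulation. The measure is the change of the LPS-treated level itself, with no untreated change taken off, so it also holds any drift of the culture. Over all genes, 31.7% were higher and 32.7% lower in LPS cells at 18 h than at 3 h. Of the 359 transient higher genes 305 were lower in LPS cells at 18 h (85.0%), and of the 232 transient lower genes 189 were higher (81.5%). For reversed genes the shares were 77 of 83 lower and 36 of 41 higher. Of the 263 steady higher genes 93 were higher and 117 lower. Tnf changed by -3.29 ± 0.10 in LPS cells, Gbp5 by -4.31 ± 0.25, Ccl5 by 0.99 ± 0.09 and Marco by 4.78 ± 0.31. The untreated level of Tnf, given above, fell by no less, so its change in LPS cells is not a smaller fold over untreated cells.

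The same counts can be split by which level led under S14. Among late higher genes 129 of 151 treated-led genes (85.4%) were higher in LPS cells at 18 h, against 76 of 198 drift-led genes (38.4%). Among late lower genes 222 of 233 treated-led genes (95.3%) were lower in LPS cells, against 48 of 80 drift-led genes (60.0%). Among transient higher genes 187 of 209 treated-led genes (89.5%) were lower in LPS cells at 18 h, against 51 of 65 drift-led genes (78.5%). The split itself was made on level changes: all 151 treated-led late higher genes were called higher at 18 h in S14 cells. The 198 drift-led ones had a median treated change of -0.05. As the LPS change also holds any drift of the culture, these gaps can follow from the split, and that part was not tested. Ube2c fell by 6.17 ± 0.26 and Ccnb2 by 8.37 ± 0.35 in LPS cells, while Pkm rose by 1.08 ± 0.07. Some genes went against the S14 course: Rasgrp3, an activator of RAS, was lower at 3 h and waning under S14 (with an interaction of 0.95 ± 0.24, or -0.13 on the spike-in scale and 0.28 on that scale without replicate 4 of the untreated group at 18 h), and fell by 2.75 ± 0.44 in LPS cells, and Herpud1, a factor of ER-associated degradation that was transient under S14 (-1.05 ± 0.17), rose by 0.70 ± 0.14. The classes differ in level, with a median of 88.6 CPM in S14 cells at 3 h for the transient higher genes, against 15.5 CPM for genes with no call, so that the share called in any contrast is not the same for all classes. The part of level in these counts was not tested.

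**Figure D5:**
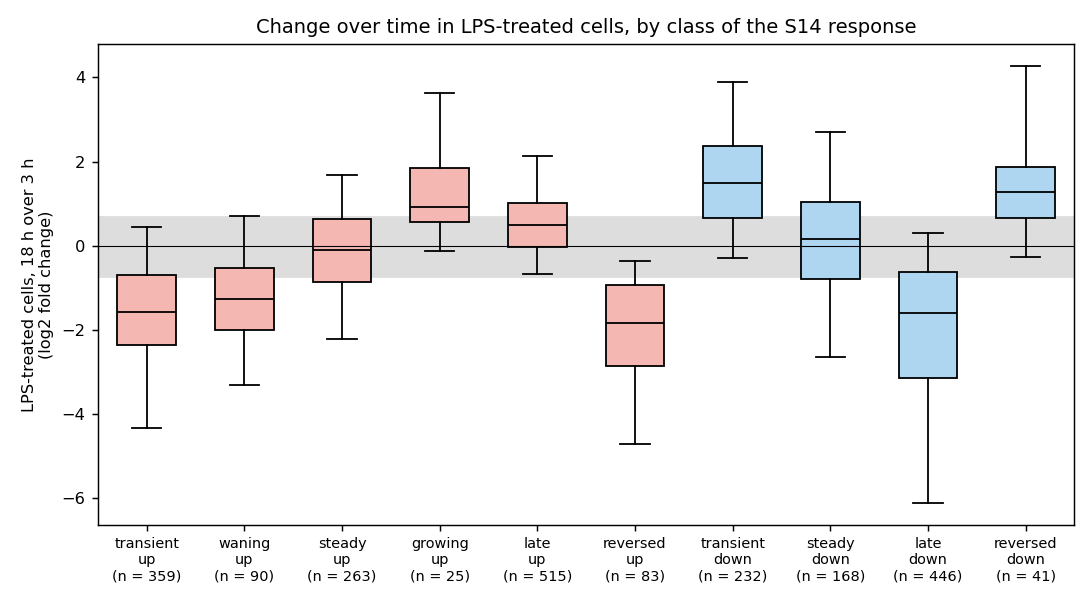
Boxes give the median and quartiles, and whiskers the 5th and 95th percentiles, of the log2 fold change of LPS-treated cells at 18 h over 3 h for the genes of each time class (n genes), with classes that were higher in S14 cells in red and lower ones in blue; the grey band spans the quartiles over all genes tested. Transient, waning and reversed higher genes and late lower genes lie below 0, transient lower and growing higher genes above it, and steady genes near it.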

How the data were processed

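RNA of 24 libraries of bone marrow-derived macrophages was measured, 4 in each of 6 groups. The authors deposited a table of counts, whole reads per gene without normalization, for 55401 genes and 7 ribosomal RNA entries, which took 0.132% to 0.469% of a library and were set aside. A second table that the authors deposited holds a signal: reads over a library's size factor. Undoing that division gave whole reads within 0.001 for 100% of 1332528 values. It also holds 114 spike-in features, 62 with reads, 705 to 2588 reads per library. The submitters' processing notes list cutadapt 1.18, STAR 2.6.1a, featureCounts 1.6.4, FastQC, Subread, DESeq2 and GRCm38. No source used here gives the strand setting or the treatment of reads with several matches, so overlapping genes and close paralogs can share reads.

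The low-count filter was filterByExpr (by group, counts of at least 10 and 15 in total). After TMM scaling, edgeR 4.0.16 fitted 1 mean per group over all 24 libraries with a robust quasi-likelihood model (18 residual degrees of freedom), tested on simulated data. Each contrast was tested with the quasi-likelihood F test and adjusted by Benjamini-Hochberg over 11717 genes, with a call at an adjusted p under 0.05. The SE follows from the log2 fold change and F. Source was read from the contrast of the sum of the treated and untreated changes: for a gene with a called interaction, a called sum of the same sign means that the treated level moved more, and of the opposite sign that the untreated level moved more. With 3334182 to 6350251 reads per library, a gene at 1 CPM rests on few reads, and precision is limited by counting there.

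The genes, the 33 pathway and 11 marker lists and the alternatives were chosen with earlier results of these data known. 1 further marker gene is not reported here. Named genes had at least 10 CPM in 1 group (index genes aside, of which Il6 had less) and were the 10 highest and 10 lowest interactions, the 5 largest folds of each class and direction, the 5 highest and 5 lowest drift-led genes, the 3 members of each list with the largest interaction, and index genes including Tnf, Il1b, Il6, Il10, Nlrp3, Nos2, Tlr4, Abca1, Saa3, Marco and Csf1r. Not all of them are printed. Atp6v1d and Cnn2 are named as the genes next to the threshold. Alternatives were DESeq2 1.42.0 with its size factors, RLE factors, spike-in scaling with and without replicate 4 of the untreated group at 18 h, no filter on low counts, a fit on 16 libraries, the replicate number as a block, the reads of the second table, an adjusted p under 0.01, and leaving out each library. Promoters came from RefSeq (GRCm38.p6).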

Additional observations from a re-analysis of the deposited data

Results flagged for a closer look

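Among the genes named, 28 of 364 groups of 4 libraries (7.69%) held 1 library set apart from the other 3 by more than Dixon's 95% limit, where chance gives about 5%. In the untreated group at 18 h there were 9 such values, and replicate 4 gave 6 of them: Gbp5 (45.86 CPM), Ifit1 (1677 CPM), Tap2 (138.8 CPM), Cd74 (1423 CPM) and Cx3cr1 (280.6 CPM) were high there and Mertk (63.71 CPM) was low. In the same group Cd40 was low in replicate 2 (18.5 CPM), Egr1 high in replicate 3 (6.151 CPM) and Ccl8 high in replicate 1 (12.97 CPM).

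In S14 cells at 18 h the values set apart were Cd40 (18.94 CPM, low), Irak2 (48.44 CPM, low), Tnfaip3 (6.578 CPM, low), Ednrb (35.61 CPM, low), Nxpe5 (97.72 CPM, high), Uqcrq (322.6 CPM, high) and Id3 (4.21 CPM, high). In S14 cells at 3 h they were Icosl (89.15 CPM, low), Csf1 (46.81 CPM, high), Abca1 (72.93 CPM, high), Mmp8 (14.07 CPM, low), Uqcrq (308.4 CPM, low), Ube2c (125.6 CPM, low) and Il10 (12.23 CPM, high). In untreated cells at 3 h they were Cxcl10 (240.9 CPM, low), Gbp5 (12.77 CPM, low), Gbp3 (23.75 CPM, high), Nxpe5 (12.38 CPM, low) and Ccnb2 (70.88 CPM, high).

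By edgeR's test of the difference itself, the S14 effect differed between 18 h and 3 h for 892 genes with a positive and 1052 with a negative interaction.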

How the results depend on the processing

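The count of 1944 interaction genes was 2152 with DESeq2, 1920 with RLE factors, 1954 without a filter on low counts, 1944 in the fit on 16 libraries and 1902 from the second table. No gene swapped between treated-led and drift-led under any alternative, but many lost their label with spike-in scaling. On that scale 284 of the 1008 treated-led genes and 171 of the 414 drift-led genes kept it. Without replicate 4 of the untreated group at 18 h, 438 of the treated-led genes kept it on that scale, and fewer of the drift-led genes did than with that replicate. Spike-in scaling gave 4115 interaction genes, 374 S14 calls at 3 h and 7639 at 18 h, 1775 treated-level changes, 150 transient, 60 steady, 13 waning, 2 growing and 3637 late genes, and 445 treated-led and 842 drift-led genes. The same scaling without replicate 4 of the untreated group at 18 h gave 1416 interaction genes, 795 S14 calls at 3 h, 2426 untreated-level changes, 384 transient, 112 steady, 10 waning, 2 growing and 78 reversed genes, and 577 treated-led and 136 drift-led genes. Of 80 named genes with a called interaction, 57 kept the call with spike-in scaling, 16 lost it and 7 changed sign. Without replicate 4 of the untreated group at 18 h these counts were 61, 18 and 1. With spike-in scaling the interaction turned to -0.13 for Rasgrp3, -0.25 for Saa3, -0.31 for Cerk, -0.23 for Pkm, -0.16 for Uqcrq, -0.24 for Sec61b and -0.59 for Tlr4. Without that replicate only Tlr4 of these 7 was negative (-0.027), and the other 6 were at 0.28 (Rasgrp3), 0.11 (Saa3), 0.18 (Cerk), 0.31 (Pkm), 0.10 (Uqcrq) and 0.13 (Sec61b), none of them called. The scale is set per library, so the shift was not the same for all genes. With spike-in scaling the interaction of Gbp5 went from -3.48 to -4.97 and that of Nqo1 from 2.33 to 1.52. The spike-in totals rest on 705 to 2588 reads.

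An adjusted p under 0.01 gave 1149 interaction genes, 1822 S14 calls at 18 h, 270 steady, 52 waning, 10 growing, 538 late and 41 reversed genes, and 624 treated-led and 197 drift-led genes. Leaving out 1 library gave 1648 to 2118 interaction genes, 484 to 629 transient, 795 to 1133 late and 16 to 40 growing genes. Of 80 named genes with a called interaction 75 kept it in every such fit.

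The replicate number as a block gave 2032 interaction genes, 1913 of them shared with the same sign. Same-numbered libraries of different groups had correlations of deviations of 0.00011 to 0.0843. All were under the limit of 0.1 set here, and the main fit did not pair the samples. All were positive, however, and some exceeded the highest correlation with another number, such as 0.0843 against -0.00328 for replicate 4 of the 18 h groups. Others did not, such as 0.000112 against 0.0335 for replicate 1 of the untreated groups. Whether same-numbered libraries share an origin was not tested. The Saa3 interaction was not called with the block, on 16 libraries or without the filter, and that of Slc7a11 was called with the block (adjusted p = 0.0125). No other named gene's call changed with the block.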
